A study of Mus musculus with 2 samples.

Results

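The Kruppel-like factors described here are 10 zinc finger transcription factor genes of mouse embryonic fibroblasts: Klf2, Klf3, Klf4, Klf5, Klf6, Klf7, Klf9, Klf10, Klf13 and Klf15. They were chosen by gene symbol from a comparison table of 23365 genes, and all 10 were present in it. RNA sequencing had been done on 2 genotypes, with 1 library of wild-type fibroblasts and 1 of fibroblasts with TET1/TET2 knocked out. TET1 and TET2 are enzymes that oxidize 5-methylcytosine in DNA. The title of the series places the study around regulation of developmental genes by these enzymes and DNA methylation. The labels give neither the embryo age nor the number of embryos, the knock-out alleles or the passage of the cells.

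The conditions of the authors' deposited table are named A and B, and its column names do not say which of them is the knock-out. Ratios are therefore given as B over A and are assigned to neither genotype. The level of a gene is its mean normalized count as the authors' deposited table gives it, the mean over both conditions of counts divided by size factors. Columns holding 1 value per condition matched neither sample label and were not used. With 1 library per genotype no ratio has a replicate check, and p-values quoted from the authors' deposited table compare 2 libraries, not the genotypes. In these bulk samples, fewer cells of a type and less RNA per cell cannot be told apart.

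Kruppel-like factors bind CACCC boxes and related GC-rich sites through a conserved array of zinc fingers at the C terminus, and differ in the N-terminal part that recruits cofactors. By those cofactors the family is usually divided into repressors that bind CtBP (Klf3, Klf8 and Klf12), factors that mostly activate through histone acetylases (Klf1, Klf2, Klf4, Klf5, Klf6 and Klf7), and factors that recruit the Sin3 corepressor (Klf9, Klf10, Klf11, Klf13, Klf14 and Klf16), while Klf15 and Klf17 stand apart. In fibroblasts and other mesenchymal cells they are known as early-response genes and as regulators of growth arrest, adipogenesis and smooth muscle phenotype, and Klf4 is among the factors used to reprogram fibroblasts to pluripotency.

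Promoter sequences are shown for Klf2 and Klf4, the members higher in B by the size rule given further on, and for Klf6, the member with the highest level. They are the 250 bases before the annotated start site in RefSeq on build GRCm38.p6, which is not the mm9 build of the submitters' processing notes. Capitals mark CACCC and GGGCGG on either strand (read as GGGTG and CCGCCC on the other). These motifs were the only ones marked. Neighbouring matches may touch or overlap, as in the Klf4 window, and each match was counted. The Klf2 window lies at chr8:72318812-72319061 on the plus strand, that of Klf4 at chr4:55532476-55532725 on the minus strand and that of Klf6 at chr13:5861239-5861488 on the plus strand.
Klf2: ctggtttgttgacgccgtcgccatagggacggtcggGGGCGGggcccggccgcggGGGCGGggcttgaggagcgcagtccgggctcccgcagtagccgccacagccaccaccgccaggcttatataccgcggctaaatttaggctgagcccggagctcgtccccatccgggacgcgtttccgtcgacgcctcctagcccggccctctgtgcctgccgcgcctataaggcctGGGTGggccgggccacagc
Klf4: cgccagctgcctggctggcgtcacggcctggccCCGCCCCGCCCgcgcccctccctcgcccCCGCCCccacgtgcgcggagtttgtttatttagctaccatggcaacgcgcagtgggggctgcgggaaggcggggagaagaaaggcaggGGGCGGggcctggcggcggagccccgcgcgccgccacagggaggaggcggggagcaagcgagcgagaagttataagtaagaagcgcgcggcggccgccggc
Klf6: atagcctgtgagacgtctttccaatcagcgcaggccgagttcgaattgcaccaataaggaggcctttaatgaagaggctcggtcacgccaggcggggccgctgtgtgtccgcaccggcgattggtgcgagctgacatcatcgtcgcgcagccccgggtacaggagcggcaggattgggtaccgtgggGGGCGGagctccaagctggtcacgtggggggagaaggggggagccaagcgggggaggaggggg

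The Klf2 window held 1 CACCC box and 2 GGGCGG boxes. That of Klf4 held 4 GGGCGG boxes and 0 CACCC boxes, and that of Klf6 held 1 GGGCGG box and 0 CACCC boxes. RefSeq windows were matched for 8 of the 10 members, the others being Klf5 and Klf10. At least 1 GGGCGG box was found in 7 of 8 members, against 32.7% of 32817 promoter windows of the same length, and a CACCC box in 6 of 8, against 52.0% of all windows. A CCAAT box (either strand) was found in 4 of 8 and in 33.8% of all windows, and 4 of these boxes were in the Klf6 window. TATAAA (either strand) was found in 0 of 8 and in 12.4% of all windows. The windows compared include those of genes with few or no reads. The members' median GC content was 71.4%, against 52.4% over all windows, and GGGCGG holds only G and C. Shares among windows of like GC content were not taken, so these counts are not read as a trait of the family. A match describes these letters and is not a bound site.

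All 8 windows were rich in CpG, the dinucleotide on which DNA methylation and TET enzymes act. The members' median was 23.5 CpG dinucleotides in 250 bases, against a median of 6 over all windows. Many expressed genes share this richness. Of 9215 genes with a window and a mean of at least 50, 6497 had at least 13 CpG, the members' lowest number. Klf15 had 37 CpG, Klf4 had 32, Klf2 had 29, Klf13 had 24, Klf3 had 23, Klf6 had 21, Klf9 had 18 and Klf7 had 13. The members with the lowest and highest ratios among these 8, Klf7 and Klf4, had 13 and 32 CpG, but Klf15, with the most, had a log2 ratio of 0.48 by the authors' deposited table. Across 9210 genes with a promoter window and a mean of at least 50, CpG number and log2 ratio had a Spearman rho of -0.03. Genes are not independent replicates, and many share promoter base composition. Of 1459 such genes with at least as many CpG as Klf2, 6.58% were higher in B by the size rule and 7.27% higher in A. No methylation was measured in these libraries.

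**Figure D1:**
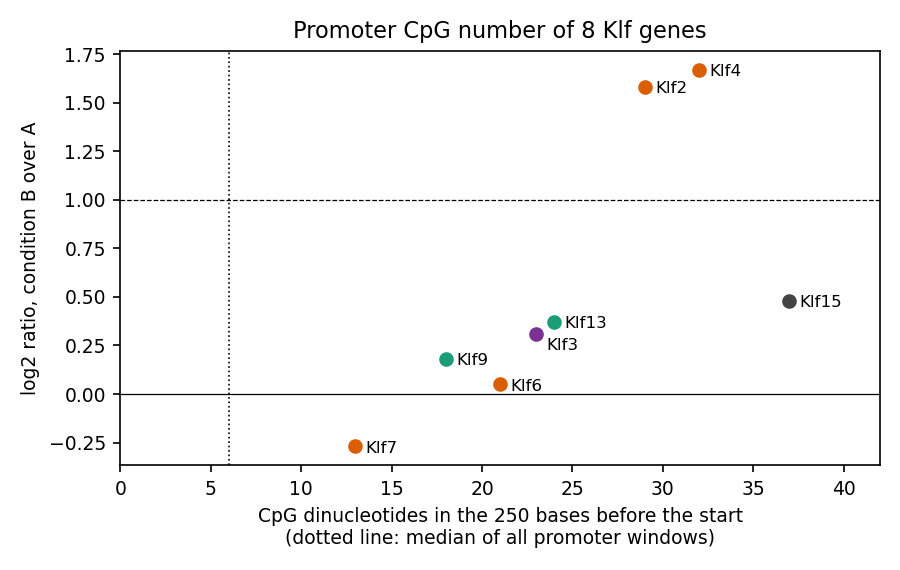
The number of CpG dinucleotides in the 250 bases before the start site (x axis) is plotted against the log2 ratio of condition B over condition A (y axis) for the 8 members with a RefSeq window, with 1 point per gene coloured by cofactor group. All 8 lie to the right of the dotted line, the median of 6 CpG over all windows, and Klf2 and Klf4 lie above the dashed line at a log2 ratio of 1.

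All 10 genes were detected, at levels that differed widely. Per kilobase of the longest GENCODE transcript, Klf6 had the highest mean normalized count at 4671, and Klf4 followed at 4222. Klf6 is a broadly expressed growth-inhibitory factor. Klf13 had 1254 per kilobase, and Klf3, Klf10, Klf2 and Klf9 lay close together at 902, 842, 826 and 707. Klf5, Klf7 and Klf15 were the lowest at 85.5, 64.0 and 40.8 per kilobase. These levels have no spread over samples, so which neighbours in this order differ beyond replicate error could not be judged. Of the members' summed mean normalized count, not divided by length, Klf6 made up 37.0%, Klf4 24.0% and Klf13 15.0%. Among 12401 genes with a mean of at least 50, Klf6 stood at percentile 96.2 of the mean and Klf15 at percentile 5.10.

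**Figure D2:**
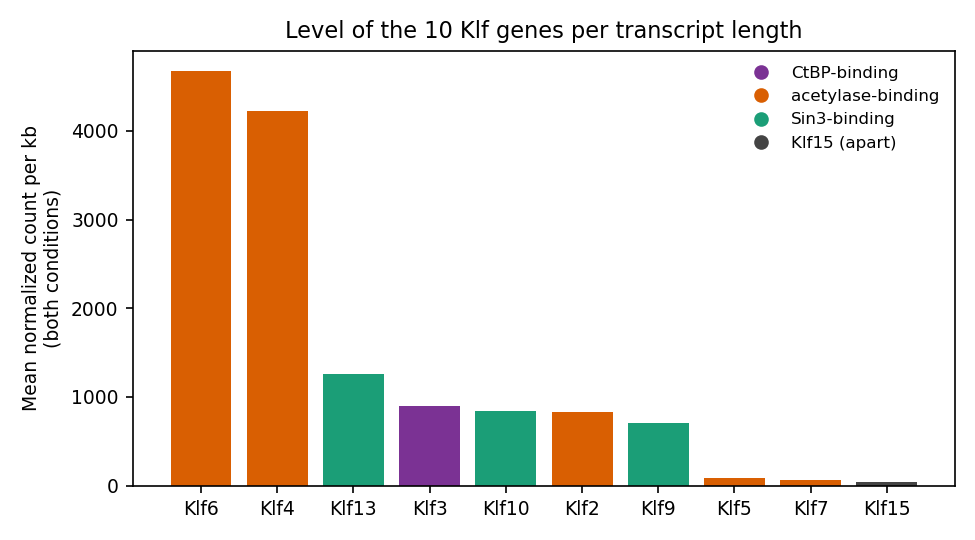
Bars give the mean normalized count over both conditions per kilobase of transcript for each of the 10 genes, coloured by cofactor group. Klf6 (4671) and Klf4 (4222) stand above the other 8, and Klf5, Klf7 and Klf15 lie under 100 on this scale.

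Klf2 and Klf4 were higher in B, Klf5 was lower, and the other 7 members differed by less than 2-fold. The size rule asks for a difference of 2-fold or more, a log2 ratio of 1 or above or of -1 or below, at a mean of at least 50. It was met by 2 of 10 members toward B, where 8.31% of 12401 genes met it, and by 1 of 10 toward A, where 9.60% did. In either direction 3 of 10 members met it beside 17.9% of all genes. The members' median log2 ratio was 0.24, beside -0.04 over all genes at the minimum mean. By the adjusted p-values of the authors' deposited table, 0 of 10 members lay under 0.1, beside 2.29% of the 17339 genes with a p there. An unadjusted p under 0.05 was reached by 2 of 10, Klf2 and Klf4, both higher in B, beside 6.28% of genes in either direction and 3.10% with the higher value in B. The 17339 genes with a p include 4938 with a mean below 50, which the shares of the size rule leave out. The family was not tested against other genes.

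**Figure D3:**
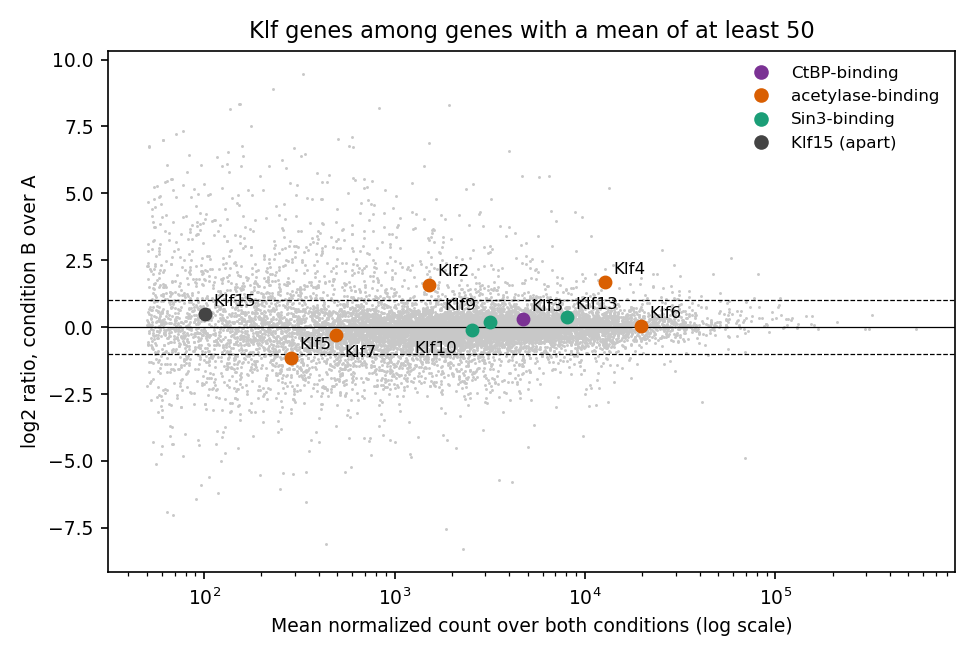
Each grey point is a gene whose mean normalized count was 50 or more and whose ratio was finite, plotted by its mean over both conditions (x axis, log scale) and its log2 ratio of condition B over condition A (y axis), with the 10 Klf genes coloured by cofactor group. Klf2 and Klf4 lie above the dashed line at 1, Klf5 lies just below the line at -1, and the other 7 lie between the lines.

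Among the acetylase-binding members, Klf4 had the largest ratio of the 10. Klf4, a regulator of epithelial differentiation and growth arrest, was 3.18-fold higher in B by the authors' deposited table, at a mean normalized count of 12789. Its log2 ratio of 1.67 had a 95% counting interval of 1.63 to 1.71, and by the authors' deposited table its p was 0.00799 and its adjusted p 0.242. Of the 12401 genes, 576 had a larger log2 ratio than Klf4. Counting intervals here are exact binomial intervals on the share of reads from B, and they cover counting error only.

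Klf2, best known for quiescence of T cells and for the response of endothelium to flow, was 3.0-fold higher in B by the authors' deposited table. Its log2 ratio of 1.58 had a counting interval of 1.46 to 1.70 at a mean normalized count of 1525. By the authors' deposited table its p was 0.0229 and its adjusted p 0.482. The counting intervals of Klf2 and Klf4 overlapped. Genes under an adjusted p of 0.1 had log2 ratios of 1.97 or more in size by the authors' deposited table, larger than that of either gene.

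Klf5, a factor of dividing epithelium and smooth muscle, went the other way. It was 2.20-fold lower in B by the authors' deposited table, with a log2 ratio of -1.14 and an adjusted p of 1. Its counting interval of -1.40 to -0.88 reached across the size rule at -1, at a mean normalized count of 286. Of the members that met the size rule Klf5 lay nearest to its limit, and of those that did not Klf15 did, at 0.48. Klf6 had a ratio close to 1, with a log2 ratio of 0.05 by the authors' deposited table and a counting interval of 0.02 to 0.08. Klf7, known from neurons and axon growth, had a log2 ratio of -0.27 by the authors' deposited table and a counting interval of -0.46 to -0.09. In GENCODE, 39.3% of its exonic bases are overlapped by Gm26649 on the opposite strand. The library kit does not mark strand, so reads of the pair cannot be told apart, and the value of Klf7 is uncertain. Thus 2 of the 5 acetylase-binding members were higher in B by the size rule, 1 was lower and 2 were neither. Of all genes, 8.31% were higher in B and 9.60% lower. With 5 members these counts are too small to be read as a result about the group.

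The Sin3-binding members had small ratios, from -0.10 to 0.37 on the log2 scale. Klf9, induced by glucocorticoid and thyroid hormone, had a log2 ratio of 0.18 by the authors' deposited table, with a counting interval of 0.11 to 0.25. Klf10, an early gene induced by TGF-beta, had a log2 ratio of -0.10 by the authors' deposited table, with a counting interval of -0.18 to -0.02. Klf13, a factor studied in T cells and heart, had a log2 ratio of 0.37 by the authors' deposited table, with a counting interval of 0.33 to 0.42. All 3 had an adjusted p of 1 by the authors' deposited table. These intervals exclude 0 by counting error alone, which says nothing of the spread between cultures.

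Klf3, the CtBP-binding member and a repressor that restrains adipogenesis, had a log2 ratio of 0.31 by the authors' deposited table (counting interval 0.25 to 0.37, adjusted p = 1). In GENCODE, 3.6% of its exonic bases are overlapped by Gm20033 on the opposite strand. Klf15, a metabolic factor induced by glucocorticoid, had a log2 ratio of 0.48 by the authors' deposited table (adjusted p = 1). It rested on the fewest reads, about 202 over both conditions, and its counting interval ran from 0.07 to 0.91.

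The other family genes were fixed as a list with the related Sp factors, which bind GC boxes. Of its 16 genes, 9 had a mean of at least 50, and by the size rule 1 was higher in B, 2 were higher in A and 6 were neither. Of all genes, 8.31% were higher in B and 9.60% higher in A, and counts this small cannot be set apart from those shares. The list's median log2 ratio was -0.40, beside -0.04 over all genes at the minimum mean. The count higher in B was 2 with a minimum mean of 10, 0 with one of 200 and 3 with none, where the median was -0.22. Klf12 and Klf8, the CtBP-binding relatives of Klf3, were the 2 higher in A. Klf12 was 3.42-fold lower in B by the authors' deposited table, with a log2 ratio of -1.77, a counting interval of -1.92 to -1.63 and an adjusted p of 0.352. Klf8 was 3.0-fold lower in B by the authors' deposited table, with a log2 ratio of -1.58, a counting interval of -1.85 to -1.33 and an adjusted p of 1. The counting intervals of both lay below that of Klf3. Klf11 and Klf16, of the Sin3-binding group, had log2 ratios of -0.10 and -0.33 by the authors' deposited table. Klf1, Klf14 and Klf17 had mean normalized counts of 4.32, 1.00 and 0.527 by the authors' deposited table, too low for a ratio to be read. Sp6 was the gene higher in B, with a log2 ratio of 3.92 at a mean normalized count of 91.6 by the authors' deposited table (adjusted p = 0.420), and it was chosen for mention after its value was seen.

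**Figure D4:**
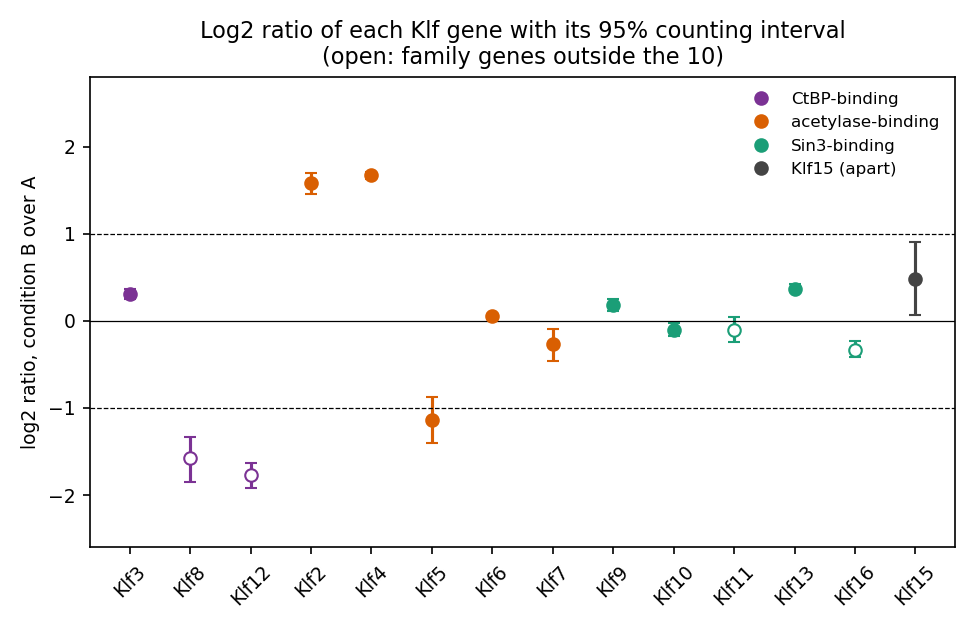
Points give the log2 ratio of condition B over condition A for the 10 members (filled) and for 4 further Klf genes with a mean of at least 50 (open), grouped by cofactor, with bars for the 95% counting interval. Klf2 and Klf4 lie above 1, Klf5, Klf8 and Klf12 lie below -1, and the interval of Klf5 crosses the dashed line.

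The 10 members lie on 10 different chromosomes. Klf5 and Klf12 are adjacent protein-coding genes in the RefSeq order, and by the size rule both were lower in B. Of the 20 protein-coding neighbours, 1 on each side of a member, 13 had a mean of at least 50, and 2 were higher in B, 2 higher in A and 9 neither. Klf12 is 1 of the 2 higher in A. Of all genes, 8.31% were higher in B and 9.60% higher in A, and counts this small cannot be set apart from those shares. The neighbours of Klf2, Ap1m1 and Eps15l1, had log2 ratios of -0.09 and 0.16 by the authors' deposited table. Rad23b, beside Klf4, had a log2 ratio of -0.03 by the authors' deposited table at a mean normalized count of 19643. Beside members with ratios near 1, Tlr1 next to Klf3 had a log2 ratio of 4.43, Akr1e1 next to Klf6 one of -5.23 and Otud7a next to Klf13 one of 1.15 by the authors' deposited table. Their mean normalized counts were 128, 591 and 61.1, and that of Otud7a lay close to the minimum of 50. Neighbours were taken by position, and those named were chosen after their values were seen.

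Genes known as flow-responsive or endothelial targets of Klf2 and Klf4 had the largest median ratio in size of the 10 lists around the family. The list did not separate genes that these factors raise from genes that they lower, so its median is no measure of their activity. Of 10 genes, 7 had a mean of at least 50. The size rule was met by 5 of these 7 with the higher value in B and by 1 in A, beside 8.31% and 9.60% of all genes. The list's median log2 ratio was 1.58, beside -0.04 over all genes at the minimum mean. This median moved with the minimum mean, to 1.44 with one of 10, 1.86 with one of 200 and 1.31 with none. Jam2, a junction protein, was 7.42-fold higher in B by the authors' deposited table (adjusted p = 0.00359). Vcam1, an adhesion molecule, was 7.25-fold higher in B by the authors' deposited table (adjusted p = 0.00185). Of the other genes at the minimum mean, Edn1, S1pr1 and Tek had log2 ratios of 2.13, 1.58 and 1.21 by the authors' deposited table. Aqp1 and Thbd had ones of -0.46 and -1.32, and these 5 genes are given to complete the 7. Endothelial markers were measured beside this list. Of 7, 3 had a mean of at least 50, and all 3 (Kdr, Tek and Emcn) were higher in B by the size rule. The defining markers Pecam1, Cdh5 and Tie1 were near 0, with mean normalized counts of 9.80, 8.43 and 0.474 by the authors' deposited table. Tek belongs to both lists. The part of endothelial cells in these ratios was not tested.

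Of 14 cofactor genes, 0 met the size rule in either direction, beside 17.9% of all genes, and the median log2 ratio was -0.29. The count was not tested against that share, and in so short a list it is not read as a result about cofactors. Log2 ratios of the 14 ran from -0.97 to 0.01. None of the 14 had an adjusted p below 0.1 by the authors' deposited table. Sap30, a Sin3 complex subunit, had the largest ratio in size, a log2 ratio of -0.97 by the authors' deposited table, and the acetylase Ep300 had one of -0.53. Of 17 upstream regulators, 1 met the size rule with the higher value in B and 0 did in A, and the median was 0.05. That gene was Wwp1, a ubiquitin ligase that targets Klf2 and Klf5 for degradation, which was 2.90-fold higher in B by the authors' deposited table (adjusted p = 0.372). Fbxw7, the substrate-binding part of another ubiquitin ligase of Klf2 and Klf5, had a log2 ratio of 0.48 by the authors' deposited table.

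Of genes that share inducing signals with the members, 1 or 2 per list met the size rule in each direction. Of all genes, 8.31% met it toward B and 9.60% toward A, and counts this small cannot be set apart from those shares. Of 9 glucocorticoid-induced genes at the minimum mean, 1 was higher in B and 2 higher in A, with a median log2 ratio of -0.25. The phosphatase gene Dusp1 had a log2 ratio of 1.71 and the chaperone gene Fkbp5 one of -1.65 by the authors' deposited table, beside 0.18 for Klf9 and 0.48 for Klf15. Of 10 TGF-beta-induced genes, 2 were higher in B and 1 higher in A, with a median of 0.42. Tgfbi, a matrix protein gene, was 7.52-fold lower in B by the authors' deposited table (adjusted p = 0.00133), while Id1 had a log2 ratio of 1.54 and Klf10 one of -0.10.

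Lists of processes in which the members act held 0 to 2 genes past the size rule in each direction, beside the same 8.31% and 9.60% of all genes, and these counts are too small to be read as a result about a list. Of 6 adipogenic genes at the minimum mean, 1 was higher in each condition. Lpl, the lipoprotein lipase gene, had a log2 ratio of 3.65 by the authors' deposited table (adjusted p = 0.000233), and Pparg, the adipogenic receptor gene that Klf5 activates, one of -1.40. Of 8 smooth muscle genes, 2 were higher in B and 1 higher in A, with log2 ratios of 3.0 for Myh11 and -1.32 for Smtn by the authors' deposited table. Of 9 growth control genes, 2 were higher in each condition. The inhibitor gene Cdkn1b had a log2 ratio of -2.41 and Cdkn2a one of 1.99 by the authors' deposited table, and their adjusted p was 0.0252 and 0.0854. Of 9 pluripotency partners of Klf2, Klf4 and Klf5, 6 were below the minimum mean, and 1 of the other 3, Tfcp2l1, was higher in A with a log2 ratio of -2.88 at a mean normalized count of 88.3 by the authors' deposited table. Tbx3 had a log2 ratio of 0.99 by the authors' deposited table, just short of the size rule, and met it when ratios were centred on their trimmed mean or median, which takes the count higher in B from 0 to 1.

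**Figure D5:**
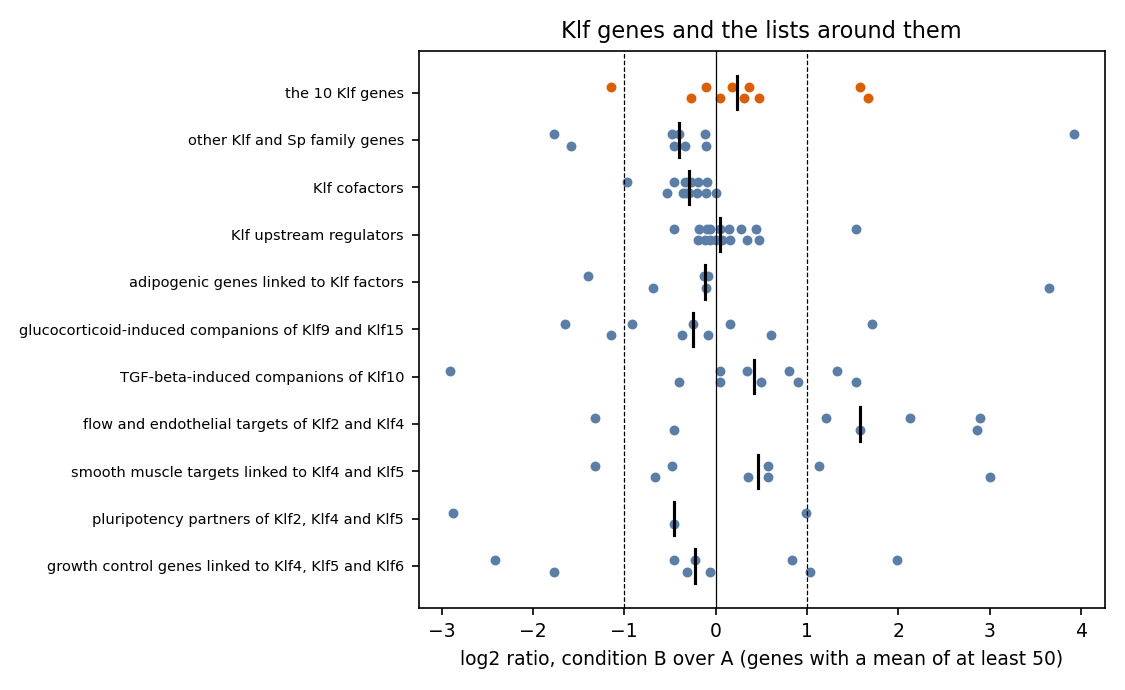
Each point is the log2 ratio of condition B over condition A (x axis) of 1 gene with a mean of at least 50, in rows for the 10 Klf genes and 10 lists around them, and the black bar is the row's median. The row of flow and endothelial targets has a median of 1.58, the cofactors lie between -0.97 and 0.01, and most other rows spread to both sides of 0.

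The fibroblast label was checked against markers. All 11 fibroblast markers had a mean of at least 50, 5 being higher in B by the size rule and 0 higher in A. Of all genes, 8.31% were higher in B and 9.60% higher in A. The other 6 fibroblast markers were neither. Dcn had the largest ratio of the 11, a log2 ratio of 5.66 at a mean normalized count of 4688 by the authors' deposited table. Col1a1, with the highest mean of the 11 at 312018, had a log2 ratio of -0.08. All 4 smooth muscle markers had such a mean, 1 being higher in B. Of 7 epithelial markers 6 lay below it, and so did 4 of 7 macrophage and blood markers and 3 of 4 adipocyte markers. The defining markers Epcam, Ptprc and Adipoq had mean normalized counts of 4.37, 3.53 and 0.474 by the authors' deposited table. Of 4 chondrocyte markers 3 had a mean of at least 50, and all 3 were higher in A. The largest ratio in size was that of Col2a1, 29.3-fold higher in A at a mean normalized count of 69652 by the authors' deposited table. The part of these cell types in the members' ratios was not tested. The targeted genes Tet1 and Tet2 had log2 ratios of -1.82 and -0.74 by the authors' deposited table, and Tet3, which was not targeted, had one of -0.63. The table has 1 value per gene and does not separate a deleted exon.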

How the data were processed

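Libraries were made with the TruSeq RNA v2 kit from DNase-treated total RNA, per the labels' protocols. TopHat2 2.0, DESeq and build mm9 are named in the submitters' processing notes; for the counter, annotation and dispersion the sources used here give nothing. The authors' deposited signal is the mean normalized count over both conditions, and their deposited ratio (fold) and log2 ratio are of condition B over condition A without a pseudocount. The authors deposited p-values, raw and adjusted, which come from DESeq. The 2 columns of values per condition match neither label and were not used.

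Ratios were described by the size rule and by counts of the authors' p-values. In genes listed at 0 in 1 condition, all 592 and 1090 means were whole multiples (within 0.01 of a multiple) of 0.474 and 0.527, so 1 read was worth 0.949 or 1.05 normalized counts. Normalized counts were therefore taken as reads for exact (Clopper-Pearson) 95% intervals, with the mean times the number of conditions as the reads and the deposited ratio as their split. Any PCR duplicates kept in the deposited counts were taken as reads, and total depth was not analysed here. Exonic overlaps and lengths came from GENCODE M21, and promoters from RefSeq GRCm38.p6. The 10 members and the lists were chosen with earlier results of these data known. Besides the members and every other Klf gene, the 2 largest log2 ratios in size of each list were named. Scripts ran in Python 3.11.15 with pandas 2.3.3. The size rule and the trimmed mean were tested on simulated data with counting error only.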

Additional observations from a re-analysis of the deposited data

How the results depend on the processing

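Centring on the trimmed mean of log2 ratios (-0.02, trimming 30% of ratios and 5% of means at each end) or on the median (-0.04) left all 10 members with their direction and their side of the size rule. Minimum means of 10, 200 or none, and a 1.5-fold size, gave 2 members with the higher value in B and 1 in A. With a log2 ratio of 2 in size, 0 were higher in either condition. The members' median lay between 0.18 and 0.28. By the authors' deposited table, 0 members lay under an adjusted p of 0.1 or 0.05, and 2 had an unadjusted p under 0.05. Of 150 values of the lists recomputed, 18 moved. Among them the median of the pluripotency partners was -0.45, and 0.27 at a minimum mean of 200. The median of the flow and endothelial targets was 1.58, and 1.86 at a minimum mean of 200 and 1.31 with none. No paired analysis was possible because each genotype had 1 library. Precision by counting was lowest for Klf15, with an interval half-width of 0.42 on the log2 scale, and biological error could not be estimated.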
